A study of Mus musculus with 6 samples.

Results

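The endoplasmic reticulum is where secreted and membrane proteins are translocated, folded, glycosylated and, when folding fails, sent out for destruction. This account follows 42 genes of that machinery through mouse peritoneal macrophages exposed to ligands of Toll-like receptors. The genes were taken from a list of names that was chosen with earlier results of these data known. Each was found through array probes whose platform annotation names that gene alone. All 42 were measured, by 46 probes, among 19935 genes in all. They comprise 13 chaperones and co-chaperones, 8 members of the disulfide isomerase family, 8 genes of the translocon, 9 genes of endoplasmic reticulum-associated degradation, and 4 genes that sense or relay folding stress.

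The cells were peritoneal macrophages of the inbred mouse strain C57BL/6, phagocytes of the abdominal cavity, cultured in DMEM with serum. One group was left untreated, with no culture time given. The second received poly I:C, a man-made analogue of viral double-stranded RNA sensed by TLR3, at 2 ug/mL for 24 h. The third received PAM, a lipopeptide sensed by TLR2, at 1 ug/mL for 24 h, and its arrays carry the compound names PAMCSK3 and PAMCSK4. Each group had 2 arrays, so 6 were compared. Nothing in the labels says whether paired arrays came from separate mice or cultures, so p-values reflect only the spread between arrays, which may be technical. The sources used here do not give age, sex or the purity of the cells. In such bulk RNA, fewer cells of a type and less RNA per cell cannot be told apart. The culture time of the untreated cells is not given, so time in culture may enter every difference from them. Changes shared by both ligand groups cannot be told apart from it, and other differences from untreated cells may hold a part of it. Poly I:C and PAM were both given for 24 h, so the comparison between them uses equal times.

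Folding in this compartment starts with Hsp70-class and lectin chaperones that hold nascent chains while isomerases form disulfide bonds. Proteins enter through the Sec61 channel, and those that fail to fold are drawn back to the cytosol and ubiquitinated by a membrane complex built around the ligase Syvn1. When unfolded protein accumulates, the sensors Ern1 (IRE1), Atf6 and Eif2ak3 (PERK) start the unfolded protein response, which raises chaperone transcription and slows translation. Macrophages that turn to secreting cytokines load this pathway heavily, and IRE1 and Xbp1 are known to act in Toll-like receptor signalling.

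The deposited values are on a log scale, taken here as log2, and each probe had been set to a median of 0 over the 6 arrays. A value is therefore a distance from that probe's own middle and no measure of how strongly a gene is expressed. Where the control arrays lie between the treated ones they are also mirror images around 0, which is a property of the centring and leaves differences between groups untouched. The number steps of the values show that 37 of the 42 genes had a probe whose signal, before centring, was at least 8 on every array. The 5 others were Calr, Pdia4, Pdia5, Derl3 and Eif2ak3. Pdia5, Derl3 and Eif2ak3 had a probe at 4 or above, and the level of Calr and Pdia4 could not be read from the steps. All 10 macrophage markers examined, among them Adgre1, Csf1r, Cd68 and Lyz2, also had a probe at 8 or above. Differences are given as log2 value ± SE with n = 2 arrays per group, and adjusted p-values come from limma over all 19935 genes.

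The 42 genes moved apart under the ligands. With poly I:C, 28 fell and 0 rose relative to untreated cells, and with PAM, 26 rose and 3 fell. Set directly against each other, 34 genes were lower under poly I:C than under PAM and 1 was higher. Without PAM replicate 1 the 3 became 1, and without poly I:C replicate 1 or either PAM array the 1 higher became 0. The median difference over the 42 was -0.36 with poly I:C, 0.33 with PAM and -0.69 between the ligands, where the medians over all genes tested were 0.01, 0.00 and 0.01. With a log2 difference of at least 0.5 also required, 16 fell with poly I:C, 14 rose and 0 fell with PAM, and between the ligands 25 were lower and 0 higher under poly I:C. Of all genes, 8.08% were lower and 5.91% higher with poly I:C by that rule, 5.3% higher and 5.82% lower with PAM, and 7.38% lower and 6.13% higher under poly I:C than under PAM.

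Among all genes tested, 18.2% were called lower and 12.1% higher with poly I:C, 11% higher and 14% lower with PAM, and 15.8% lower and 12.9% higher under poly I:C than under PAM. In the first-named directions the shares of the 42 were 66.7%, 61.9% and 81%. The list was chosen with earlier results of these data known, so these shares describe it and test nothing. Genes with a probe at 8 or above pass more often, and among these 6035 genes 34.1% were lower and 21.5% higher with poly I:C, 20.6% higher and 25.6% lower with PAM, and 30.2% lower and 24% higher under poly I:C than under PAM. Of the 37 members in that class, 25 fell with poly I:C, 24 rose with PAM and 30 were lower under poly I:C than under PAM. At an unadjusted p under 0.05, 2 of the 42, Dnajb11 and Ern1, were higher with poly I:C, and limma with robust variance estimation also called 0. Both poly I:C arrays lay below both untreated arrays for 32 of the 42 genes and above them for 5, as for 30.7% and 28.4% of all genes. Both PAM arrays lay above the untreated ones for 32 and below for 5 (26.2% and 29.5% of all genes). Both poly I:C arrays lay below both PAM arrays for 39 and above for 2 (29.3% and 32% of all genes). The comparisons with untreated cells share the same control arrays. The difference between the ligands is taken from poly I:C and PAM arrays alone, but its error is estimated from all 6 arrays, controls included.

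**Figure D1:**
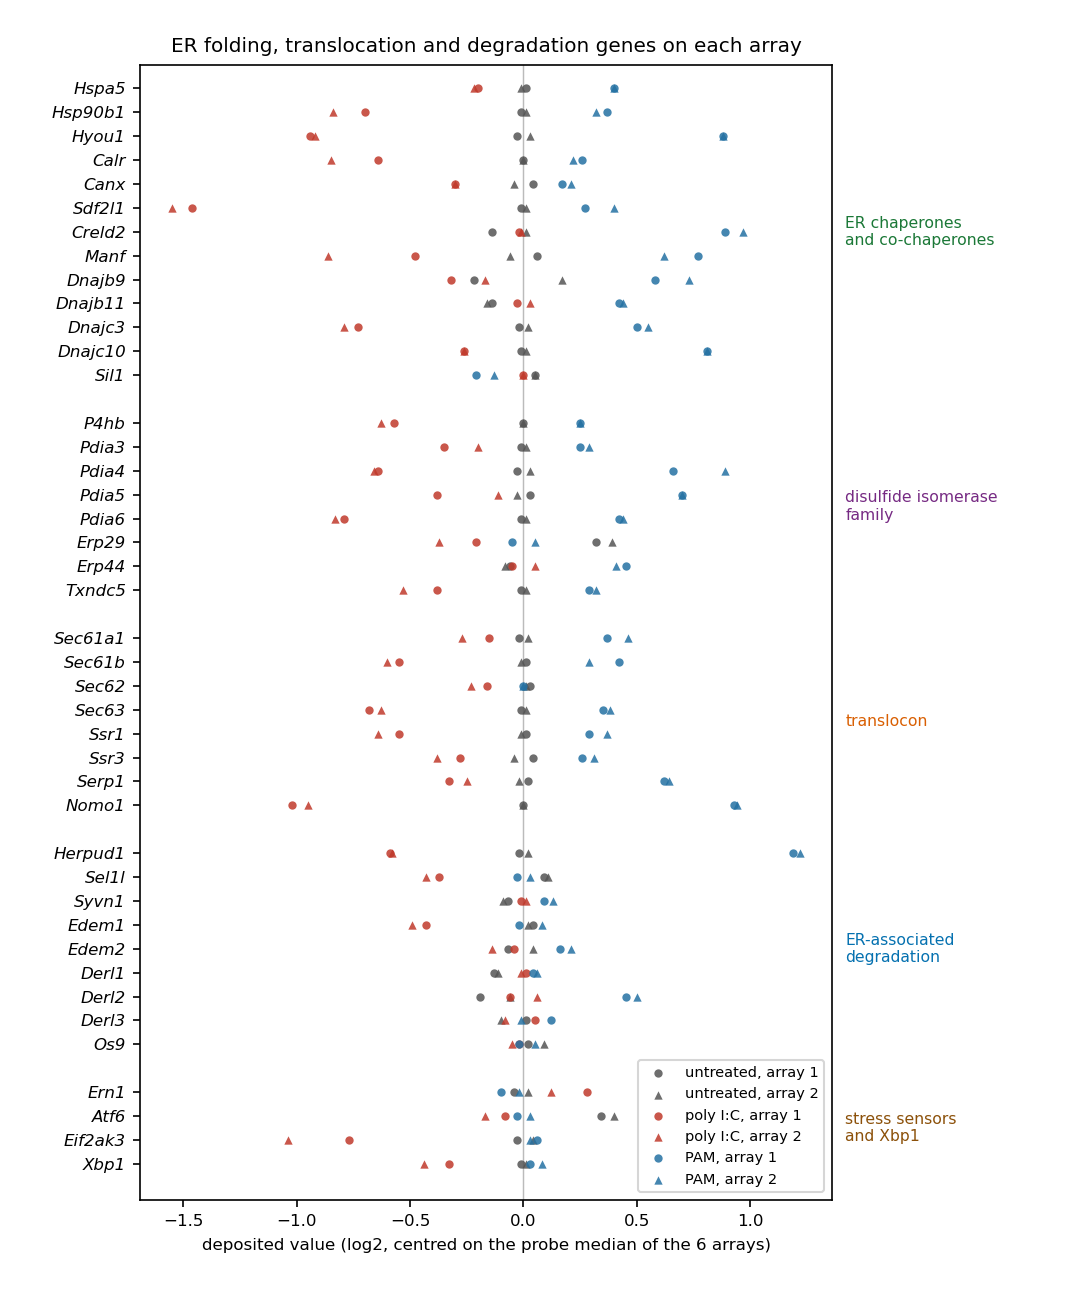
Deposited values, taken as log2, of the 42 genes (rows, grouped by role) on each of the 6 arrays. Untreated arrays are in grey, poly I:C in red and PAM in blue, with circles and triangles for arrays 1 and 2. For most chaperone, isomerase and translocon genes the red points lie left of the grey ones and the blue points right, from -1.55 for Sdf2l1 with poly I:C to 1.22 for Herpud1 with PAM.

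Because so many of these genes moved in parallel, their promoters were read for the elements through which the unfolded protein response is known to act. Each promoter was 250 bases before to 50 after a RefSeq gene start (GRCm38.p6), and 35 of the 42 genes had an entry, 39 promoters in all. Hyou1, Manf, Sil1, Erp29, Sec61a1, Derl1 and Atf6 were not matched. The endoplasmic reticulum stress element ERSE, CCAAT and CCACG with 9 bases between them, is bound by ATF6 together with the factor NF-Y. Its exact letters, on either strand, were in 9 of the 35 genes (25.7%). By promoter, they were in 9 of the 39 of members and in 39 of 32851 overall (0.119%). The shorter ERSE-II, ATTGG and CCACG with 1 base between them, was in 2 of the 35 genes. By promoter, it was in 2 of the 39 and in 0.0365% of all. The element UPRE, TGACGTGG, was in Txndc5 alone among the members (0.676% of all promoters), and TGATGNAA, the core of ATF4-type sites, was in Txndc5 and Herpud1 (3.97% of all promoters). All were searched on both strands. ERSE and ERSE-II are built of the same blocks and could share bases, but no member held both. A match describes letters and does not show binding. Only exact letters were counted, so a member without a match may hold a variant of the element or one outside these bases. The elements were already known for this response, so the shares describe the members and test nothing.

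The matched stretches are shown with 15 bases on either side, 5′ to 3′ on the gene's strand, with the ERSE or ERSE-II letters in capitals. They are printed because they are what these members share at their start sites, and because they sit in genes that passed the test and in genes that did not. Matches written CGTGG first run in the reverse orientation.
Hspa5 (ERSE, chr2:34772010-34772058, + strand): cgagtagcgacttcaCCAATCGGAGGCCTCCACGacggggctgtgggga
Hsp90b1 match 1 (ERSE, chr10:86705623-86705671, - strand): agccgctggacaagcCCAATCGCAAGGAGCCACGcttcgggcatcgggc
Hsp90b1 match 2 (ERSE, chr10:86705518-86705566, - strand): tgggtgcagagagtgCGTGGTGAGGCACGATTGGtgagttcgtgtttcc
Calr (ERSE, chr8:84847060-84847108, - strand): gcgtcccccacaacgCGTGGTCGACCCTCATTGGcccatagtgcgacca
Canx (ERSE, chr11:50325785-50325833, - strand): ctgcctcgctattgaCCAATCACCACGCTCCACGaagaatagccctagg
Creld2 (ERSE, chr15:88819505-88819553, + strand): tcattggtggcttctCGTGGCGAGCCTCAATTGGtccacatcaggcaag
Dnajc3 (ERSE, chr14:118937812-118937860, + strand): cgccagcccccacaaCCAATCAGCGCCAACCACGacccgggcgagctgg
Pdia6 (ERSE, chr12:17266476-17266524, + strand): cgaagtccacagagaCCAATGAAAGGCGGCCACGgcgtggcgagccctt
Syvn1 (ERSE, chr19:6046517-6046565, + strand): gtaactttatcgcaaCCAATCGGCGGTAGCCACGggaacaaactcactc
Derl3 (ERSE, chr10:75893227-75893275, + strand): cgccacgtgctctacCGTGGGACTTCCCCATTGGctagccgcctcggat
Dnajb11 (ERSE-II, chr16:22857837-22857877, + strand): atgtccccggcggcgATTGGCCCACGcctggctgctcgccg
Herpud1 (ERSE-II, chr8:94386362-94386402, + strand): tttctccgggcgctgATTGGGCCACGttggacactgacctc

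Counted in bases from the gene start, the matches lay between -212 (Hsp90b1) and 17 (Dnajb11). In Hspa5 the match ran from -65 to -47, in Pdia6 from -98 to -80 and in Herpud1 from -52 to -42. Hsp90b1 held 2, in opposite orientations. Members with and without an exact match were counted side by side, with no test between them. Of the 11 with either, 7 fell with poly I:C, 7 rose with PAM and 9 were lower under poly I:C than under PAM, with a median of -0.94 between the ligands. Of the 24 with neither, 17 fell with poly I:C, 16 rose with PAM and 21 were lower under poly I:C than under PAM, with a median of -0.81. The 16 that rose numbered 10 without PAM replicate 2.

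Syvn1 and Derl3 carried an exact ERSE and passed in none of the 3 comparisons. Syvn1 was close to passing with PAM (adjusted p = 0.0595 by limma) and passed after quantile normalization (0.0397). Derl3 had no probe at 8 or above, so its small differences may reflect a low signal, which was not tested. Sdf2l1, the member that fell most with poly I:C, holds neither exact set of letters in its promoter (chr16:17132334-17132633, - strand):
Sdf2l1: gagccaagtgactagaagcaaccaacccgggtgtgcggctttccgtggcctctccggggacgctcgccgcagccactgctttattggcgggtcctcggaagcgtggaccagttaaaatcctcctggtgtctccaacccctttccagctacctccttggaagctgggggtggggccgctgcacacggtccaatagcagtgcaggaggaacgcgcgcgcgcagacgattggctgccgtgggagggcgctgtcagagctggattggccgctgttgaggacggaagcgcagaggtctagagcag
Outside the members, 38 genes had ERSE or ERSE-II in a promoter and 19 of them were measured. Of these 19, 5 were lower under poly I:C than under PAM (26.3%) and 2 were higher (1 without poly I:C replicate 2), with a median of -0.05. Among them Rcl1 was higher with PAM by 2.00 ± 0.07, and Nucb1, which encodes a calcium-binding protein of the Golgi, fell by 0.70 with poly I:C.

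**Figure D2:**
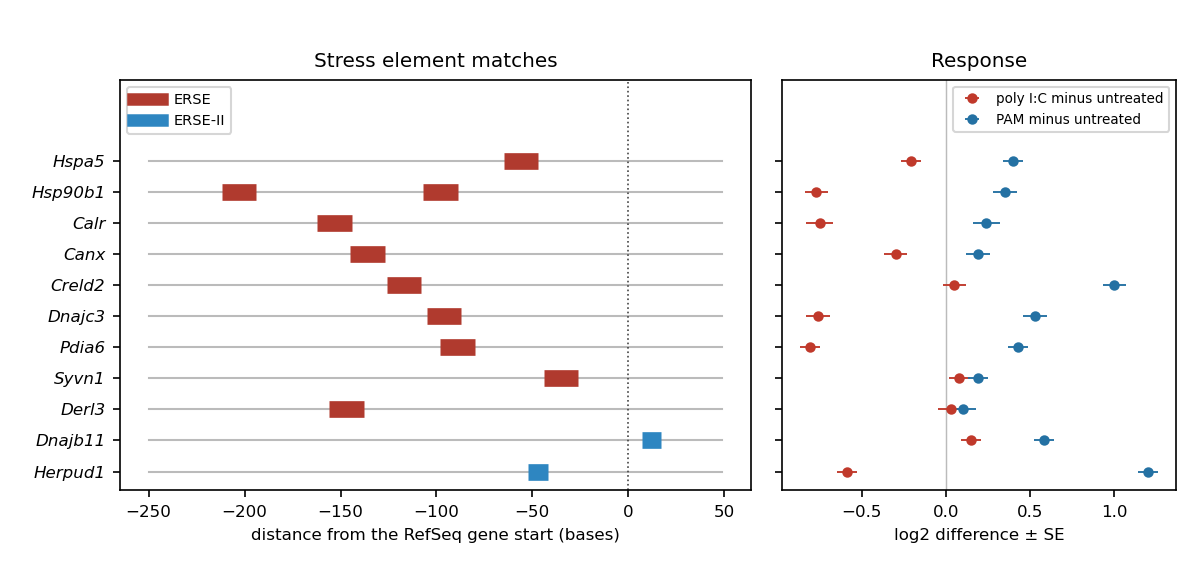
Left, positions of ERSE (red) and ERSE-II (blue) matches from 250 bases before to 50 after the RefSeq start of the 11 members that hold them. Right, log2 difference ± SE of the same genes with poly I:C (red) and PAM (blue) against untreated cells (n = 2 arrays per group); Syvn1 and Derl3 lie between 0.03 and 0.19, while Herpud1 lies at -0.59 and 1.20.

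The chaperones were the group with the largest median difference between the ligands, -0.99 over 13 genes. Of these, 9 fell and 0 rose with poly I:C, 10 rose and 1 fell with PAM, and 12 were lower under poly I:C than under PAM. Sdf2l1 encodes a luminal partner of the co-chaperone Dnajb11. Its values were -0.01 and 0.01 on the untreated arrays, -1.46 and -1.55 with poly I:C, and 0.27 and 0.40 with PAM. Poly I:C arrays were thus far below the rest, and the fall was 2.83-fold (SE 0.07 on the log2 scale, adjusted p = 5.81e-07). The rise with PAM was 0.34 ± 0.07 (adjusted p = 0.0086).

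Hyou1, the large Hsp70-type chaperone also called GRP170, moved by nearly equal steps in the opposite directions. It stood at -0.03 and 0.03 untreated, at -0.94 and -0.92 with poly I:C and at 0.88 and 0.88 with PAM. The 3 groups did not overlap, with differences of -0.93 ± 0.06 (adjusted p = 4.95e-06) and 0.88 ± 0.06 (adjusted p = 8.23e-06) and a gap of 3.52-fold between the ligands. Sil1, the other nucleotide exchange factor for Hspa5, did not follow it. Its values were 0.05 and 0.05 untreated, 0.00 and 0.00 with poly I:C, and -0.21 and -0.13 with PAM, the only chaperone lower with PAM than in untreated cells (-0.22 ± 0.07, adjusted p = 0.0373).

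Hspa5, or BiP, is the central Hsp70 of the compartment. It measured 0.01 and -0.01 untreated, -0.20 and -0.22 with poly I:C, and 0.40 and 0.40 with PAM. Arrays of the 3 groups were separate, and the differences were -0.21 ± 0.06 (adjusted p = 0.0325) and 0.40 ± 0.06 (adjusted p = 0.00125). Hsp90b1, the Hsp90 form of this compartment known as GRP94, was at -0.70 and -0.84 with poly I:C and at 0.37 and 0.32 with PAM, against -0.01 and 0.01 untreated. It fell by 0.77 ± 0.07 and rose by 0.35 ± 0.07. The lectin chaperones Calr and Canx, which bind glycoproteins through their sugars, fell with poly I:C by 0.75 ± 0.08 and 0.30 ± 0.07. With PAM their differences of 0.24 and 0.19 did not pass (adjusted p = 0.0612 and 0.0695).

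The co-chaperones with a J domain divided. Dnajc3 (p58IPK) fell by 0.76 ± 0.07 with poly I:C and rose by 0.53 ± 0.07 with PAM, and its 2 probes gave the same differences. Dnajc10, which is also a disulfide reductase in degradation, was at -0.26 on both poly I:C arrays and at 0.81 on both PAM arrays, against -0.01 and 0.01. Dnajb9 and Dnajb11 rose with PAM by 0.68 ± 0.12 and 0.58 ± 0.06, and with poly I:C their differences of -0.21 and 0.15 did not pass. The untreated arrays of Dnajb9 stood apart by 0.39, the widest gap between control arrays among the members.

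Creld2 and Manf are small proteins known as targets of folding stress. Creld2 measured -0.14 and 0.01 untreated, -0.02 and -0.01 with poly I:C, and 0.89 and 0.97 with PAM. PAM arrays alone were high, with a rise of 1.00 ± 0.07 (adjusted p = 1.02e-05), the largest of any chaperone with PAM, beside 0.05 ± 0.07 with poly I:C. Manf measured 0.06 and -0.06 untreated, -0.48 and -0.86 with poly I:C, and 0.77 and 0.62 with PAM. It moved both ways by like amounts, -0.67 ± 0.12 and 0.69 ± 0.12, with the widest gap between poly I:C arrays among the members.

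Among chaperone calls, that of Hspa5 with poly I:C ended in each of the 6 fits without 1 array (adjusted p from 0.062 to 0.14) and that of Sil1 with PAM did too (0.0635 to 0.243). Calls also ended for Dnajc10 without poly I:C replicate 1 or 2 (adjusted p = 0.0567 and 0.0618), for Hsp90b1 without PAM replicate 1 (0.0543) and for Sdf2l1 with PAM without PAM replicate 2 (0.083), while Calr passed with PAM without either poly I:C array (0.0386) and Dnajb9 with poly I:C without control replicate 1 (0.0101).

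**Figure D3:**
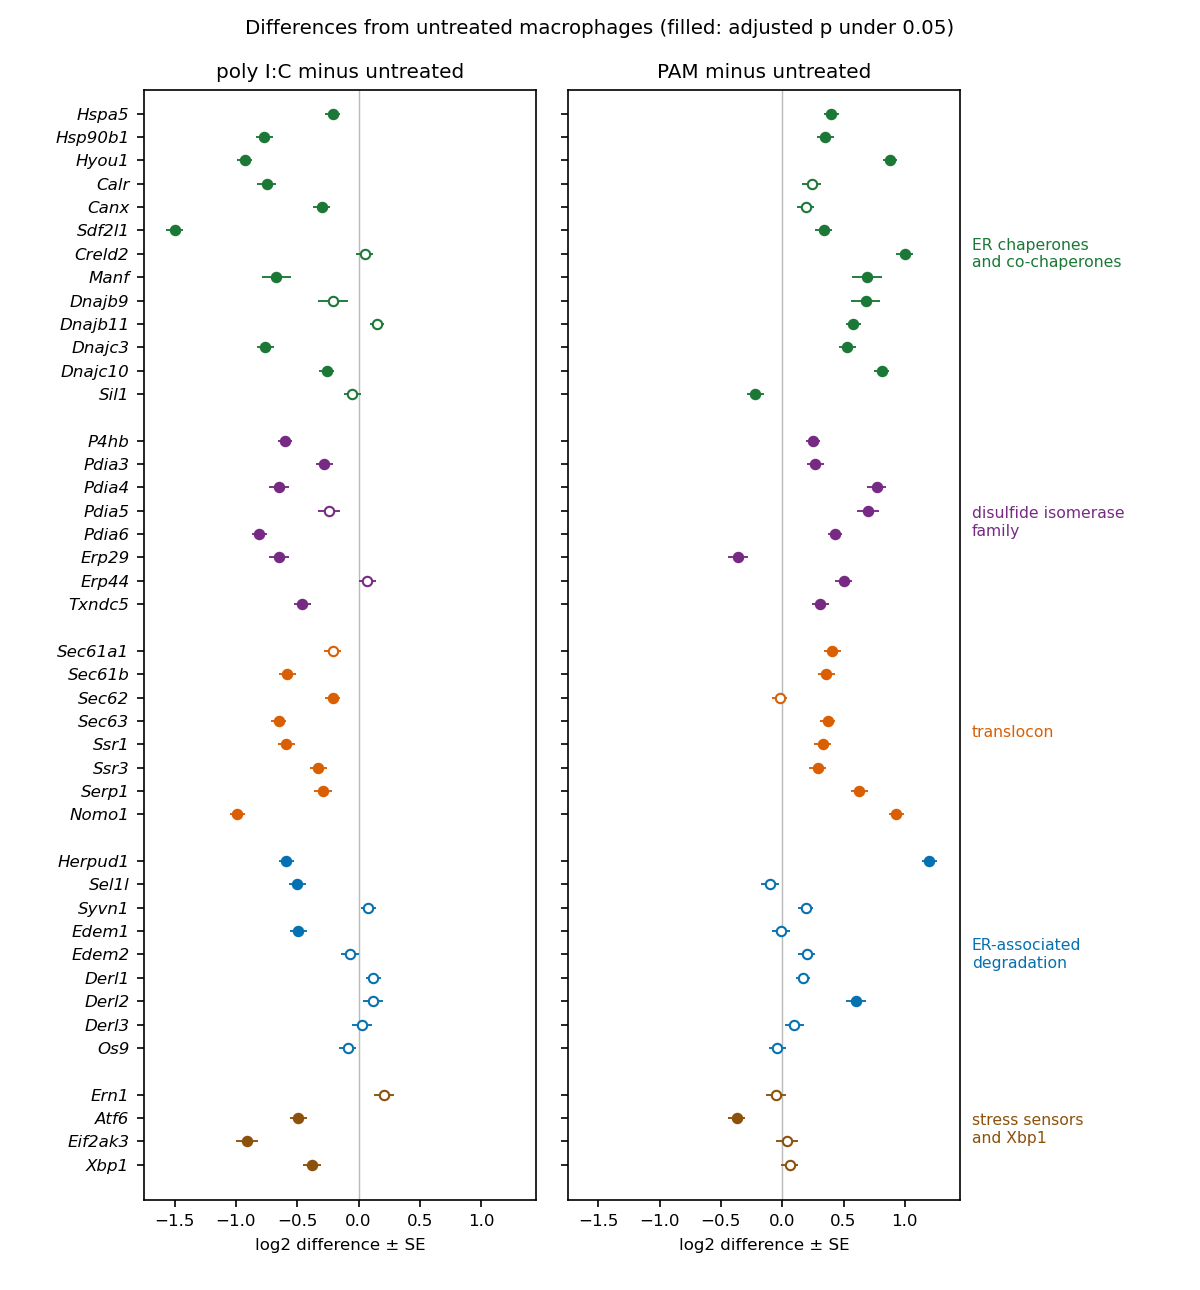
Log2 differences ± SE of the 42 genes with poly I:C (left) and PAM (right) from untreated cells, n = 2 arrays per group, coloured by role and filled where the adjusted p was under 0.05. Filled points lie left of 0 for 28 genes with poly I:C, and with PAM right of 0 for 26 and left of 0 for Sil1, Erp29 and Atf6.

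In the disulfide isomerase family, whose members form and rearrange disulfide bonds, all 8 genes were lower under poly I:C than under PAM (median -0.81). With poly I:C 6 fell and 0 rose, and with PAM 7 rose and 1 fell. Pdia4 measured -0.03 and 0.03 untreated, -0.64 and -0.66 with poly I:C, and 0.66 and 0.89 with PAM. Poly I:C and PAM arrays lay on either side of the controls, with differences of -0.65 ± 0.08 and 0.77 ± 0.08 (adjusted p = 0.000303 and 0.000118). Its 2 probes gave -0.83 and -0.47 with poly I:C and 0.67 and 0.88 with PAM.

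Pdia6 fell most of this family with poly I:C, from -0.01 and 0.01 to -0.79 and -0.83 (-0.81 ± 0.06, adjusted p = 1.21e-05), and stood at 0.42 and 0.44 with PAM. P4hb, the founding protein disulfide isomerase, was at -0.57 and -0.63 with poly I:C and at 0.25 on both PAM arrays. Pdia3, or ERp57, which works with calnexin and calreticulin, differed by -0.28 ± 0.07 and 0.27 ± 0.07. Txndc5 differed by -0.46 ± 0.07 and 0.31 ± 0.07. These 4 genes all fell with poly I:C and rose with PAM.

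Pdia5 and Erp44 rose with PAM, by 0.70 ± 0.09 and 0.50 ± 0.07, and did not pass with poly I:C. Erp44 retains clients that would escape to the Golgi. Erp29, a family member that lacks the usual active-site motif, ran otherwise. It was highest in untreated cells, at 0.32 and 0.39, against -0.21 and -0.37 with poly I:C and -0.05 and 0.05 with PAM, and so fell with both ligands (-0.65 ± 0.08 and -0.36 ± 0.08). Without PAM replicate 1 or 2 the family's count of higher genes with PAM went from 7 to 4, as P4hb (adjusted p = 0.0982 and 0.0911), Pdia3 (0.0814 and 0.135) and Txndc5 (0.058 and 0.0826) no longer passed. Pdia3 also lost its PAM call without control replicate 1 (0.0605) and its poly I:C call without control replicate 2 (0.0537) or poly I:C replicate 1 (0.127), Erp29 its PAM call without PAM replicate 1 (0.078) and its call between the ligands without poly I:C replicate 2 (0.164) or PAM replicate 2 (0.15), and Pdia5 passed with poly I:C without poly I:C replicate 2 (0.0154).

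The translocon genes moved in the same directions as the chaperones, with 7 of 8 lower with poly I:C and 7 of 8 higher with PAM. Nomo1, part of a membrane complex that works beside the Sec61 channel, showed the largest difference between the ligands of all 42 genes. It measured 0.00 and 0.00 untreated, -1.02 and -0.95 with poly I:C, and 0.93 and 0.94 with PAM. The groups were widely separate, by -0.99 ± 0.06 and 0.93 ± 0.06 from untreated cells and by 3.79-fold between the ligands (adjusted p = 5.73e-08). Sec63, which recruits Hspa5 to the channel, measured -0.68 and -0.63 with poly I:C and 0.35 and 0.38 with PAM, against -0.01 and 0.01.

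Of the channel subunits, Sec61b moved nearly as far as Sec63, and Sec61a1 moved less with poly I:C. Sec61b was at -0.55 and -0.60 with poly I:C and 0.42 and 0.29 with PAM, and its 3 probes gave from -0.62 to -0.54 with poly I:C. Sec61a1, the pore, rose with PAM (0.41 ± 0.07, adjusted p = 0.00256) and differed by -0.21 ± 0.07 with poly I:C without passing (adjusted p = 0.0532). Ssr1 and Ssr3, subunits of the translocon-associated protein complex TRAP, fell by 0.59 and 0.33 with poly I:C and rose by 0.33 and 0.29 with PAM.

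Serp1, also called RAMP4, a small stress-induced partner of the channel, was at -0.33 and -0.25 with poly I:C and at 0.62 and 0.64 with PAM. Its rise with PAM, 0.63 ± 0.07, was the larger of its moves. Sec62, which serves post-translational entry and recovery from stress, was the exception. It measured 0.03 and 0.01 untreated, -0.16 and -0.23 with poly I:C and 0.00 and 0.00 with PAM, with -0.02 ± 0.06 between PAM and untreated cells. The poly I:C call of Sec62 ended in all 6 fits without 1 array (adjusted p from 0.0619 to 0.179), and its difference from PAM passed without either control array (0.0484). Calls ended for Serp1 without poly I:C replicate 1 (0.0672), for Ssr3 without poly I:C replicate 2 (0.0585) or, with PAM, without control replicate 2, PAM replicate 1 or PAM replicate 2 (0.0665, 0.0582 and 0.107), for Sec61b with PAM without PAM replicate 1 (0.0553) and for Ssr1 with PAM without PAM replicate 2 (0.0653).

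Degradation genes had the lowest share of calls with poly I:C among the 5 roles. With poly I:C 3 of 9 fell, with PAM 2 of 9 rose, and 5 of 9 were lower under poly I:C than under PAM. Herpud1, the stress-induced scaffold of the Syvn1 ligase complex, was the clear exception and the largest rise of all 42 genes with PAM. It measured -0.02 and 0.02 untreated, -0.59 and -0.58 with poly I:C, and 1.19 and 1.22 with PAM. The rise with PAM was 1.20 ± 0.06, which is 2.31-fold (adjusted p = 1.15e-06), and the fall with poly I:C 0.59 ± 0.06 (adjusted p = 0.000102).

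Sel1l, the adaptor that stabilises Syvn1, measured 0.09 and 0.11 untreated, -0.37 and -0.43 with poly I:C and -0.03 and 0.03 with PAM. Edem1, which trims mannose from misfolded glycoproteins, measured 0.04 and 0.02, then -0.43 and -0.49, and -0.02 and 0.08. Both were low on the poly I:C arrays, falling by 0.50 ± 0.07 and 0.49 ± 0.07, while PAM differed by -0.10 and -0.01 without passing. Derl2, a derlin thought to help move proteins out through the membrane, rose with PAM (0.60 ± 0.08, adjusted p = 0.000369), differed by 0.12 ± 0.08 with poly I:C without passing, and was lower under poly I:C than under PAM (-0.47 ± 0.08).

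The ligase gene Syvn1 itself measured -0.07 and -0.09 untreated, -0.01 and 0.01 with poly I:C and 0.09 and 0.13 with PAM, a difference of 0.19 ± 0.06 with PAM that did not pass (adjusted p = 0.0595). Derl1, Derl3, the lectin gene Os9 and Edem2 did not pass against untreated cells either, with differences from -0.09 to 0.20. Edem2 was lower under poly I:C than under PAM (-0.27 ± 0.07, adjusted p = 0.0188). That call ended without poly I:C replicate 2 (0.134), PAM replicate 1 (0.0608) or PAM replicate 2 (0.121), and Syvn1 and Edem2 passed with PAM after quantile normalization (0.0397 and 0.0427), which makes 4 higher degradation genes. When only genes with a probe at 8 or above were tested, a choice made after seeing the data, 5 were higher with PAM.

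Of the 3 sensors and Xbp1, 0 of 4 rose with PAM (0 also at an unadjusted p under 0.05 and by robust limma) and Atf6 fell. With poly I:C, 3 of the 4 fell. Eif2ak3, or PERK, which phosphorylates eIF2alpha, measured -0.03 and 0.04 untreated, -0.77 and -1.04 with poly I:C, and 0.06 and 0.03 with PAM. Poly I:C arrays alone were low, by 0.91 ± 0.09 (adjusted p = 5.9e-05), and PAM differed by 0.04 ± 0.09. Xbp1, the transcription factor whose mRNA Ern1 splices, measured -0.01 and 0.01, then -0.33 and -0.44, and 0.03 and 0.08, a fall of 0.38 ± 0.07 with poly I:C and 0.06 ± 0.07 with PAM. The single Xbp1 probe gives total mRNA here and no measure of splicing.

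Atf6, the sensor that is cut in the Golgi to become a transcription factor, was highest in untreated cells, at 0.34 and 0.40, against -0.08 and -0.17 with poly I:C and -0.03 and 0.03 with PAM. Atf6 fell with both ligands (-0.49 ± 0.07 and -0.37 ± 0.07), like Erp29, and such shared falls cannot be told apart from time in culture. Ern1, or IRE1, measured -0.04 and 0.02 untreated, 0.28 and 0.12 with poly I:C and -0.10 and -0.02 with PAM. It was the 1 member higher under poly I:C than under PAM (0.26 ± 0.08, adjusted p = 0.0335), a call that ended without poly I:C replicate 1 (0.224), PAM replicate 1 (0.194) or PAM replicate 2 (0.0736).

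**Figure D4:**
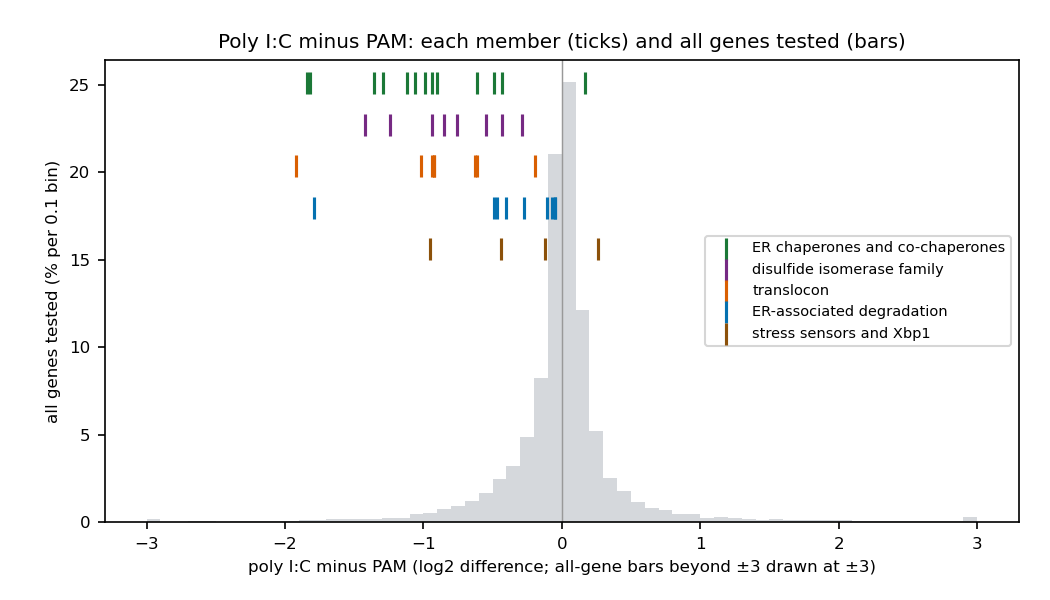
Poly I:C minus PAM on the log2 scale for each of the 42 genes (ticks, a row and colour per role) over the distribution of all 19935 genes tested (grey bars, percent of genes per bin). All but 2 ticks, those of Sil1 (0.17) and Ern1 (0.26), lie left of 0, from -1.92 for Nomo1 to -0.05 for Derl1 and Os9.

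Related genes from further lists were counted in the same fits. Oligosaccharyltransferase subunits, which glycosylate proteins as they enter, followed the members, with 10 of 12 lower under poly I:C than under PAM (median -0.56). Of the 12, 8 fell and 1 rose with poly I:C and 7 rose and 1 fell with PAM. Rpn1 differed by -0.89 ± 0.07 and 0.32 ± 0.07, and Ostc by -0.55 ± 0.07 and 0.47 ± 0.07, while Tusc3 fell with both ligands (-0.69 and -0.57). The 7 that rose with PAM became 4 without control replicate 1 and 3 without PAM replicate 2, and the 1 that rose with poly I:C, Krtcap2, became 0 in 5 of the fits without 1 array, all except that without poly I:C replicate 1.

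Of 16 further targeting and translocation genes, 11 were lower under poly I:C than under PAM and 0 higher (0 also at an unadjusted p under 0.05 and by robust limma), with a median of -0.41. Spcs3, a signal peptidase subunit, fell by 1.17 ± 0.06 with poly I:C, and the signal sequence receptor gene Ssr2 rose by 0.71 ± 0.09 with PAM. Against untreated cells 6 fell and 1 rose with poly I:C and 6 rose with PAM. The 6 that fell became 3 without control replicate 2 or poly I:C replicate 2, and the 6 that rose became 3 without PAM replicate 1. The 1 that rose with poly I:C, Ssr2, became 0 without control replicate 1, poly I:C replicate 2 or either PAM array. Of 20 other folding genes, 15 were lower under poly I:C than under PAM (median -0.42). Uggt1, which senses misfolded glycoproteins, fell by 0.99 ± 0.06 with poly I:C, and Ero1a, the oxidase that recharges the isomerases, rose by 0.89 ± 0.07 with PAM beside 0.00 ± 0.07 with poly I:C. Against untreated cells 12 of the 20 fell and 1 rose with poly I:C, and 7 rose and 1 fell with PAM, where the 7 became 4 without PAM replicate 1 or 2. The 1 that rose with poly I:C, Prkcsh, became 0 without poly I:C replicate 2.

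Cytosolic and further degradation genes were more evenly divided with poly I:C and between the ligands, but not with PAM. With PAM 57.1% of the heat shock genes (median 0.30) and 43.8% of the other degradation genes rose, beside 61.9% of the members. Of 16 other degradation genes, 7 were lower under poly I:C than under PAM and 2 were higher (median -0.11). Vcp, the ATPase that extracts proteins from the membrane, differed by -0.31 ± 0.06 with poly I:C and 0.33 ± 0.06 with PAM, whereas the ligase gene Marchf6 fell with both (-1.20 and -0.84). Of 14 heat shock genes of the cytosol and mitochondria, 6 were lower under poly I:C than under PAM and 2 were higher (median -0.10). Hspa1a, the inducible cytosolic Hsp70, rose with both ligands (0.90 ± 0.07 and 0.60 ± 0.07), and Bag3 fell with both (-0.67 and -0.64). Against untreated cells the degradation list had 5 higher and 6 lower with poly I:C and 7 higher and 2 lower with PAM, and the heat shock list 4 and 2, and 8 and 2. The 5 became 3 without control replicate 1 or either poly I:C array, and the 7 became 4 without control replicate 1 or PAM replicate 1 and 3 without PAM replicate 2. The 2 genes higher under poly I:C than under PAM became 1 without any single poly I:C or PAM array in the degradation list, and without replicate 1 of either ligand in the heat shock list.

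Genes listed for the PERK-ATF4 branch, which restore amino acid supply and steer cells under lasting stress, ran against the members with poly I:C. The name is that of the list, and whether PERK or another kinase acted on these genes was not tested. Of 18, 14 rose and 0 fell, with a median of 0.64 (0 fell by robust limma too, and 1 at an unadjusted p under 0.05). With PAM 12 rose and 1 fell, with a median of 0.41. Nupr1 rose by 2.34 ± 0.08 with poly I:C and 1.42 ± 0.08 with PAM, and Asns by 1.69 ± 0.07 and 1.70 ± 0.07. Ddit3, which encodes the transcription factor CHOP, rose with poly I:C by 2.05 ± 0.10 (adjusted p = 4.26e-07) and differed by -0.19 ± 0.10 with PAM (adjusted p = 0.216). Between the ligands 8 of the 18 were higher with poly I:C and 1, Shmt2, was lower. The 8 became 5 without PAM replicate 1, and the 1 became 0 without poly I:C replicate 1 and 2 without either control array. The 1 that fell with PAM, Atf3 (-1.25 ± 0.06), became 2 without control replicate 1. Testing only genes with a probe at 8 or above kept 8 of the 18 and left out Nupr1, Ddit3 and Shmt2. Of these 8, 6 rose with poly I:C and 5 with PAM. Atf3 then passed as lower with poly I:C (-0.17, adjusted p = 0.0457).

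**Figure D5:**
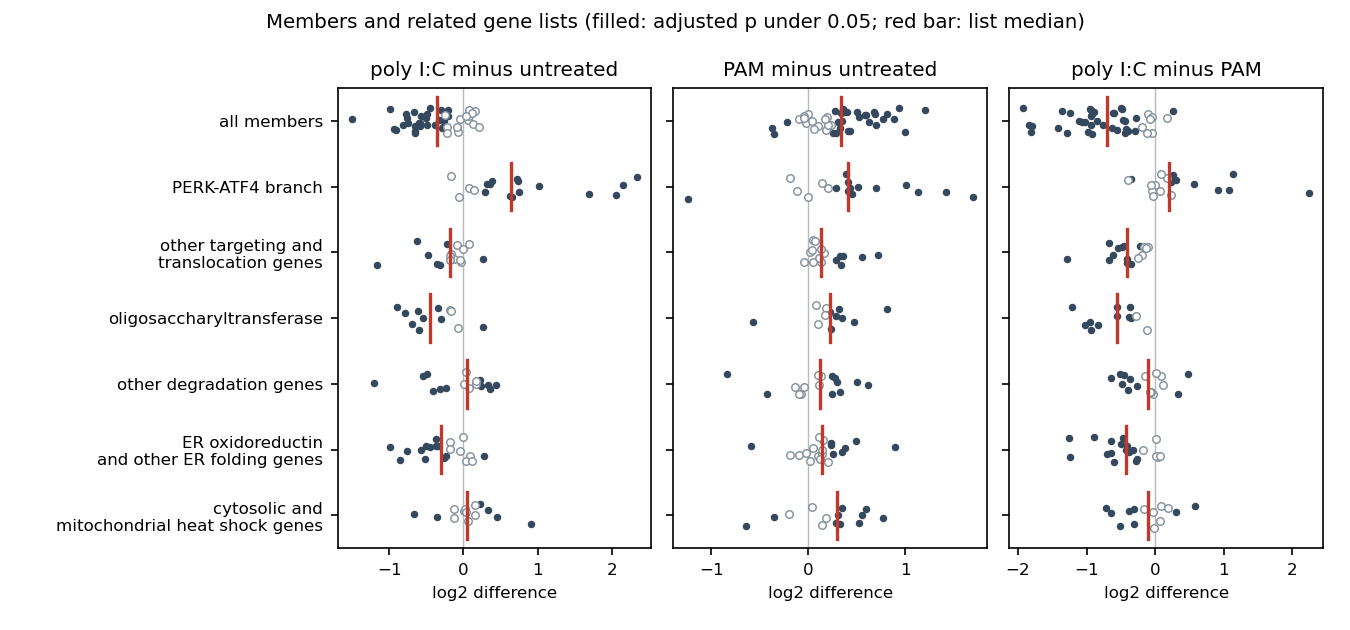
Log2 differences of the 42 genes and of 6 related lists in the 3 comparisons, 1 point per gene, filled where the adjusted p was under 0.05, with the median of each list as a red bar. With poly I:C the median of the PERK-ATF4 list lies at 0.64 and that of the 42 genes at -0.36.

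Markers of macrophages and other cells were read beside these results. Of the 10 macrophage markers 3 rose and 3 fell with each ligand, and Cd14 (-1.28 ± 0.08 and 2.39 ± 0.08) and Adgre1 (-0.97 ± 0.07 and 1.38 ± 0.07) moved in the direction most members took. Fcgr1 moved the other way (2.65 ± 0.07 and -1.72 ± 0.07), as did Mertk (0.22 ± 0.06 and -1.23 ± 0.06), Spi1 rose with poly I:C (0.51 ± 0.06, beside -0.14 ± 0.06 with PAM), and Itgam fell with both (-1.49 ± 0.07 and -0.49 ± 0.07). Their summed value ran from 0.17 to 0.80 untreated, 0.01 to 0.11 with poly I:C and 1.28 to 1.34 with PAM. Plasma cells are rich in this machinery, and of 8 plasma cell markers 1 fell and 1 rose with poly I:C, and 3 rose and 1 fell with PAM. Prdm1 (-0.34 ± 0.09 and 1.19 ± 0.09) and Mzb1 (0.42 ± 0.18 and 0.70 ± 0.18) rose with PAM like most chaperones. The untreated arrays of Mzb1 stood far apart, at -0.09 and -0.77, beside 0.22 and 0.31 with PAM. Irf4 fell with PAM (-0.48 ± 0.12, beside -0.12 ± 0.12 with poly I:C), Sdc1 rose with both ligands (1.01 ± 0.06 and 0.64 ± 0.06), and the defining genes Jchain (0.18 ± 0.10 and 0.03 ± 0.10) and Ighm (-0.07 ± 0.07 and -0.08 ± 0.07) did not pass. Of the 8, Sdc1 alone had a probe at 8 or above. With poly I:C the 1 that fell became 0 without either poly I:C array and the 1 that rose became 2 without either control array, and with PAM the 1 that fell became 0 without control replicate 2 or PAM replicate 1. The summed plasma cell value ran from -0.91 to -0.90 untreated, 0.08 to 0.13 with poly I:C and 0.89 to 1.20 with PAM. Of 9 neutrophil markers 2 rose and 1 fell with PAM, led by S100a8 (2.04 ± 0.10), Ly6g and Elane did not pass, and the sums ran from -0.30 to 0.50 untreated, -0.39 to 0.03 with poly I:C and 2.12 to 2.34 with PAM. Of 11 mesothelial and fibroblast markers 4 fell with poly I:C, and 1 rose and 2 fell with PAM, with sums of -0.29 to 2.42, -1.37 to -0.91 and 0.26 to 0.27. Their 4 became 2 without poly I:C replicate 1, the 1 became 4 without control replicate 1, and the 2 became 5 without control replicate 2 and 1 without PAM replicate 2. Of 8 B cell markers 2 rose and 1 fell with poly I:C, and 3 rose and 1 fell with PAM. The 2 became 1 without control replicate 2 or either poly I:C array, and the 3 became 1 without control replicate 2 or PAM replicate 2. Of 9 T and NK cell markers 0 passed with either ligand by standard or robust limma (at an unadjusted p under 0.05, 1 with poly I:C and 0 with PAM), and of 7 mast cell markers Hdc alone rose, with poly I:C (1.25 ± 0.10). The part of these cells in the results was not tested.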

How the data were processed

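Biotinylated cRNA from total RNA was hybridised to Affymetrix arrays, per the labels' protocols. The authors deposited 1 table of log2 values, 28815 probes on 6 arrays, per the file headers; the sources used here do not name its log base, background correction or normalization, and base 2 was assumed. Every probe was already centred on its median over the 6 arrays (largest remaining median 5e-07; array medians -0.0049 to 0.0072), so no signal level is left, no depth applies and the number of arrays limits the precision. Names came from the platform annotation: 21780 probes with 1 symbol, averaged over 19935 genes, were used, and 1605 with several symbols and 5430 with none were left out. Probes at 8 or above before centring were recognised from the single-precision step of their values (tolerance 0.06 of a step), which held for 92.6% of ribosomal protein and 1.35% of olfactory receptor probes.

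Group means were fitted with limma 3.58.1 (R 4.3.3; 3 residual and 5.68 prior degrees of freedom, no variance trend), with Benjamini-Hochberg adjustment over all genes in each of 3 comparisons and calls at 0.05. Tables and motif searches used Python 3.11.15. The fit was tested on simulated data first. Promoter sequences are from RefSeq (GRCm38.p6). The members and lists were chosen with earlier results of these data known. All members could be named, from other lists up to 3 genes per direction and comparison, and from markers those past the threshold or defining a cell type. Of the listed non-members, 13 had no single-symbol probe. Alternatives were array scaling, variance estimation, arrays or probes in the fit, a replicate block and a size minimum.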

Additional observations from a re-analysis of the deposited data

How the results depend on the processing

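Among the 42 genes no called difference changed sign under any alternative run, and robust or trended variance, each probe on its own and the replicate block changed the call of 0 of 126 gene results. With a log2 difference of at least 0.5 also required, 16 genes fell with poly I:C, 14 rose and 0 fell with PAM, and 0 were higher under poly I:C than under PAM. After quantile normalization 2 were higher under poly I:C than under PAM. Testing only genes with a probe at 8 or above, a choice made after seeing the data that leaves fewer genes tested, 1 was higher with poly I:C and 2 were higher under poly I:C than under PAM. Leaving out 1 array at a time, the genes that fell with poly I:C numbered 23 to 27 and those that rose 0; with PAM 20 to 27 rose and 1 to 2 fell, the lowest without PAM replicate 1; between the ligands 32 to 35 were lower and 0 to 1 higher, the 0 without poly I:C replicate 1, PAM replicate 1 or PAM replicate 2. The cause of these changes was not tested. With the replicate block 28 genes fell with poly I:C, 26 rose with PAM and 34 were lower under poly I:C than under PAM. Same-numbered arrays share only a number: their deviations from the group means correlated at -0.073, 0.155 and -0.01 between pairs of groups. With 2 arrays per group, differences near 0.2 lie at the limit of what could be called.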
